A study of Mus musculus with 16 samples.

Results

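Cytosolic sulfotransferases (SULTs) are the enzymes described here, as 10 genes of mouse liver. They were taken as the rows of the deposited count table whose symbol is Sult2a1, Sult2a2, Sult2a3, Sult2a5, Sult2a8, Sult3a1, Sult1a1, Sult1b1, Sult1d1 or Sult1e1, which gave 10 of 41585 rows. All 10 passed the filter on low counts, 6 of them (Sult2a1, Sult2a2, Sult2a3, Sult2a5, Sult3a1 and Sult1e1) through their level in females. SULTs move a sulfonate group from the donor PAPS onto hydroxyl or amine groups, which makes steroids, bile acids, phenols and drugs more soluble in water and easier to excrete. In mouse liver many SULT genes differ between the sexes, a pattern tied to the sex-specific rhythm of growth hormone release and to androgens. The SULT2A enzymes act mainly on hydroxysteroids and bile acids, and the SULT1 enzymes mainly on phenols, catecholamines, thyroid hormones and estrogens.

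RNA sequencing of liver was used to ask how human CYP2B6, a drug-metabolising cytochrome P450, bears on diet-induced obesity. The 4 groups were hCYP2B6-Tg females, Cyp2b-null females, hCYP2B6-Tg males and Cyp2b-null males, with 4 libraries each. Every mouse was of strain C57BL/6 and had eaten a diet of 60% fat over 16 weeks, so no group on another diet and no wild-type group enters any comparison. The null mice lack Cyp2b genes of the mouse, and the transgenic mice have the human CYP2B6 gene. Which mouse genes are missing, whether the transgenic line also lacks them, what drives the transgene and the age of the animals are not stated in these sources. The labels do not state that each library is a separate animal, so a p-value measures library-to-library spread, part of which may be technical. Single libraries are named by group and number, with tg for hCYP2B6-Tg and null for Cyp2b-null.

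Libraries held 5584587 to 9672708 counts, and levels are given as CPM, counts scaled to library size. The limit that a count of 0 allows, taken as 3 counts, corresponds to 0.313 to 0.542 CPM in one library. The 6 hepatocyte markers (Alb and others) summed to 120251 to 140923 CPM in hCYP2B6-Tg females, 122927 to 149520 in Cyp2b-null females, 120587 to 128221 in hCYP2B6-Tg males and 113921 to 119752 in Cyp2b-null males, with none at 0. Of these markers 1 was higher and 2 lower in females in hCYP2B6-Tg livers, and 2 higher and 1 lower in Cyp2b-null livers. The 10 SULT genes together took 0.224% to 0.257% of the counts of hCYP2B6-Tg females and 0.204% to 0.278% of those of Cyp2b-null females. In males they took 0.128% to 0.173% with hCYP2B6-Tg and 0.139% to 0.171% with Cyp2b-null. In whole liver, fewer cells of a type and less RNA per cell cannot be told apart. One library, null_male 4, stood apart in some markers of other tissue. It held 270 of the 279 Krt19 counts and 69 of the 82 Epcam counts of the Cyp2b-null males, both genes of bile duct cells. It also held all 159 Ctrb1 counts of these males, a pancreatic protease precursor. The bile duct markers Krt7 and Spp1 and the pancreas marker Cela1 were also highest there among these males. Sox9, another bile duct marker, was lowest there, at 4.03 CPM against 4.19 to 6.19 CPM. The pancreas markers Cpa1, Pnlip and Clps had 0 counts in it. Without null_male 4, 9 of the 10 SULT genes still passed the test between the sexes in Cyp2b-null livers and 0 of 10 between the genotypes in males.

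Of the genes, 5 lie in the Sult2a cluster of chromosome 7 (GRCm38.p6, RefSeq annotation), a stretch of 869.1 kb from 13623967 to 14493023 with 9 Sult2a rows in the table. Sult2a5 lies at 13623967 to 13670807 and Sult2a2 at 13733506 to 13779637 on the plus strand. Sult2a1 (13796246 to 13837410), Sult2a3 (14067555 to 14123048) and Sult2a8 (14410686 to 14446780) lie on the minus strand. Sult1a1 is elsewhere on chromosome 7, at 126672865 to 126690443. Sult1b1 (87513327 to 87538195), Sult1d1 (87554650 to 87569006) and Sult1e1 (87575968 to 87591611) neighbour each other on the minus strand of chromosome 5, and Sult3a1 is on chromosome 10 at 33851020 to 33879475. The table gives one value per gene, with none for single exons or UTRs.

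The sequences of 4 of these genes are shown because they cover both behaviours seen in the cluster, RNA counted in females only and RNA higher in males, together with the female gene outside it. They are the 250 bases before an annotated start, from RefSeq's promoter table for GRCm38.p6, which held 8 of the 10 genes (not Sult2a1 and Sult2a2). Each is written 5′ to 3′ on the strand of its gene, with matches to a searched motif in capitals. The motifs were TTCNNNGAA (STAT5), AGGTCA (nuclear receptor half-site), TTGCNNAA (C/EBP), ATTGAT (HNF6 and CUX core) and the HNF1 consensus, on both strands, and a shorter HNF1 half-site pair, the start of that consensus, was added after the sequences were seen. No 2 matches overlap. The Sult2a3 sequence lies at chr7:14123049-14123298 (minus strand), that of Sult2a5 at chr7:13623717-13623966 (plus strand), the first and second starts of Sult2a8 at chr7:14446588-14446837 and chr7:14438552-14438801 (minus strand), and that of Sult3a1 at chr10:33857472-33857721 (plus strand). Both Sult2a8 starts and the Sult3a1 start lie inside the annotated gene.
Sult2a3: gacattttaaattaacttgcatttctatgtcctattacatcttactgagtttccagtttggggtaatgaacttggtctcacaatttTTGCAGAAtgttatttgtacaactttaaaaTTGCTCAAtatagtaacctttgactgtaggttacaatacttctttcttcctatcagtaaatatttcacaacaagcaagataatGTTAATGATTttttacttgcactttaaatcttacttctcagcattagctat
Sult2a5: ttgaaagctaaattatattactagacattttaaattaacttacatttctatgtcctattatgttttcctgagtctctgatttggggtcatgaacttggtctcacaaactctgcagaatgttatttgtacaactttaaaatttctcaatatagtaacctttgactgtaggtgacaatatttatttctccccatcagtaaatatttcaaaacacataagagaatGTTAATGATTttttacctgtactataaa
Sult2a8, first start: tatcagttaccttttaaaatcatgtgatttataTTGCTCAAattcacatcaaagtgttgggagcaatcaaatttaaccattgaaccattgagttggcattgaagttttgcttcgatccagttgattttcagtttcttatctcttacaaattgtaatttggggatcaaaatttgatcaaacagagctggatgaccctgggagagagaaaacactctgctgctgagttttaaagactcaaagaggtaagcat
Sult2a8, second start: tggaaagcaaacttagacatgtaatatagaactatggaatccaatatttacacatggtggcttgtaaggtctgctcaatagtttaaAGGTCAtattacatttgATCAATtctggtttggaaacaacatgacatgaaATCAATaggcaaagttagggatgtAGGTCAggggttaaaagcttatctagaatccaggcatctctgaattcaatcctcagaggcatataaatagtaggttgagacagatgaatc
Sult3a1: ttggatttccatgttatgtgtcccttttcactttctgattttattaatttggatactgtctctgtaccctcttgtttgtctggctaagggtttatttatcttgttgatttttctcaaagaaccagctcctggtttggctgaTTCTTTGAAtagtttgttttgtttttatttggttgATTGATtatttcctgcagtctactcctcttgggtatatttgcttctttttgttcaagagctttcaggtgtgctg

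Sult2a3 and Sult2a5 were 88.11% identical upstream over 227 aligned positions, and both held GTTAATGATT, at -51 to -42 and at -28 to -19 from the start. This is a match to the HNF1 half-site pair, which is in 0.371% of 32851 promoters of this length; the full HNF1 consensus is in 0.00913% and in neither of these. The half-site pair also stood in the promoter of Sult1d1, at -79 to -70, a gene with RNA in both sexes. C/EBP matches stood in Sult2a3 at -164 and -134, and one in the first Sult2a8 promoter at -217; TTGCNNAA is in 9.56% of promoters. The second Sult2a8 promoter held AGGTCA at -164 and -90 (in 14% of promoters) and ATTGAT on the other strand, as ATCAAT, at -147 and -114 (6.72%). Sult3a1 held TTCTTTGAA at -109 to -101 (TTCNNNGAA is in 7.02% of promoters) and ATTGAT at -74. These are letter matches and no measure of binding.

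The hydroxysteroid genes Sult2a1, Sult2a2, Sult2a3 and Sult2a5 had RNA in all 8 female libraries and next to none in males. Sult2a1, which sulfates steroids such as dehydroepiandrosterone, stood at 514, 573, 364 and 443 CPM in hCYP2B6-Tg females and 544, 465, 609 and 287 CPM in Cyp2b-null females. In hCYP2B6-Tg males it had 1, 4, 1 and 1 counts and in Cyp2b-null males 0 counts in each library. Every female library was above every male library by a wide margin. Sult2a2 stood at 504, 543, 352 and 422 CPM in hCYP2B6-Tg females and 498, 527, 591 and 365 CPM in Cyp2b-null females. Its 4 hCYP2B6-Tg male libraries had 0, 1, 1 and 0 counts and its Cyp2b-null male libraries 0, 2, 0 and 0. Sult2a2 thus ran close to Sult2a1 in each female library and was near the limit of detection in each male library.

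Sult2a3 stood at 108, 130, 54.5 and 87.0 CPM in hCYP2B6-Tg females and 116, 104, 163 and 37.5 CPM in Cyp2b-null females, and had 0 counts in all 8 male libraries. Sult2a5 stood at 38.2, 48.9, 18.8 and 41.2 CPM in hCYP2B6-Tg females and 64.3, 53.9, 85.5 and 30.8 CPM in Cyp2b-null females, also with 0 counts in all males. A count of 0 over a whole male group allows up to 0.0988 CPM in hCYP2B6-Tg and 0.111 CPM in Cyp2b-null. Among the upstream sequences shown, those of these 2 genes are nearly alike. Sult2a1 and Sult2a2 had no upstream sequence to compare, so whether this likeness sets the pair apart was not tested.

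**Figure D1:**
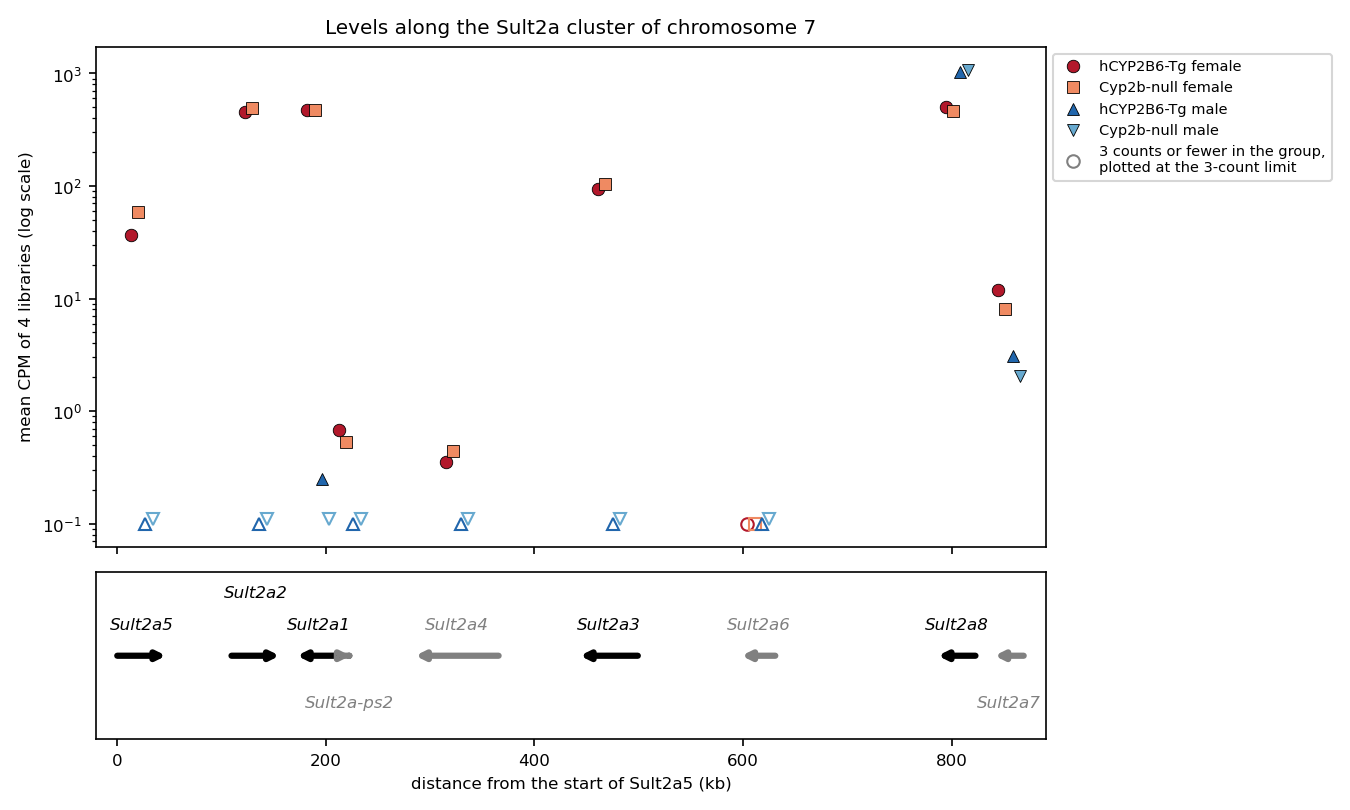
Mean CPM of each Sult2a row (log scale, n = 4 libraries per group) along the cluster, by distance from the start of Sult2a5; arrows below show strand and extent, with the 5 genes described here in black. The 4 hydroxysteroid genes at the left and centre sit between 36.8 and 495 CPM in females and at the 3-count limit or, for Sult2a1 in hCYP2B6-Tg males, 0.25 CPM, whereas Sult2a8 at the right is higher in males.

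Over pooled counts the female level of Sult2a1 was 2081 times the male level in hCYP2B6-Tg livers (14608 against 7 counts, 95% counting interval 1010 to 5177), and at least 4206-fold higher in Cyp2b-null livers (14125 against 0). For Sult2a2 the ratios were 6998 (1937 to 57790.1) in hCYP2B6-Tg and 6634 (1836 to 54780) in Cyp2b-null livers. Single male libraries set these ratios. Without tg_male 3 the hCYP2B6-Tg ratios were 3816 (1305 to 18506) for Sult2a1 and 10999 (1974 to 434478) for Sult2a2. Both Cyp2b-null male counts of Sult2a2 were in null_male 2, without which females were at least 3238-fold higher. For Sult2a3 females were at least 985-fold higher with hCYP2B6-Tg and at least 925-fold higher with Cyp2b-null, and for Sult2a5 at least 382-fold and at least 521-fold. Bounds use 3 counts over the male group, and intervals cover counting error only. All 4 genes passed the edgeR quasi-likelihood test (Benjamini-Hochberg over 13470 genes), with adjusted p of 5.82e-10, 4.93e-18, 0.00263 and 0.00219 in hCYP2B6-Tg and 6.51e-10, 5.39e-18, 0.00305 and 0.00155 in Cyp2b-null livers for Sult2a1, Sult2a2, Sult2a3 and Sult2a5.

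The split of reads within the cluster is uncertain. The Sult2a1 and Sult2a2 transcripts were 98.48% identical over 525 aligned bases, and 33.16% of the 50-base stretches of Sult2a1, 62.14% of Sult2a2, 34.5% of Sult2a5 and 8.359% of Sult2a3 occur in another Sult transcript (GENCODE). Sult2a8 shared none. Added up, the 4 genes gave 1165, 1295, 789 and 994 CPM in hCYP2B6-Tg females and 1223, 1151, 1448 and 721 CPM in Cyp2b-null females, with overlapping ranges. Sult2a1 made 39.9% to 46.1% of that sum in the 8 female libraries, Sult2a2 40.7% to 50.7%, Sult2a3 5.2% to 11.3% and Sult2a5 2.38% to 5.91%. The other Sult2a rows were low: Sult2a4 had 11 counts in hCYP2B6-Tg and 13 in Cyp2b-null females, the pseudogene Sult2a-ps2 had 21 and 15, Sult2a6 had 2 and 3, and all 3 had 0 in males.

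Sult2a8, whose mouse enzyme sulfates bile acids, went the other way. It stood at 535, 429, 612 and 435 CPM in hCYP2B6-Tg females and 336, 565, 445 and 499 CPM in Cyp2b-null females. Males had 1167, 1036, 808 and 1097 CPM with hCYP2B6-Tg and 981, 1195, 981 and 1163 CPM with Cyp2b-null. Every male library was above every female library. The log2 fold change, females over males, was -1.03 ± 0.16 (SE) in hCYP2B6-Tg livers (edgeR adjusted p = 0.000277) and -1.23 ± 0.16 in Cyp2b-null livers (5.23e-05), so females had 0.490 and 0.427 times the male level. In males the other 4 genes had 7 counts or fewer per group. In females Sult2a8 equalled 0.460, 0.331, 0.776 and 0.438 of their sum with hCYP2B6-Tg and 0.275, 0.491, 0.307 and 0.693 with Cyp2b-null.

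Sult3a1, whose enzyme sulfates amines, was another gene of females. It stood at 31.5, 46.7, 128 and 42.0 CPM in hCYP2B6-Tg females and 4.04, 35.2, 13.8 and 35.8 CPM in Cyp2b-null females. It had 0 counts in the 4 hCYP2B6-Tg male libraries and 1 count among the 4 Cyp2b-null male libraries. Females were at least 602-fold higher than males in hCYP2B6-Tg livers, and the ratio was 637 (114 to 25191) in Cyp2b-null livers. The edgeR adjusted p was 0.00203 and 0.0145, and the second became 0.0893 without null_male 1, the library with the 1 male count, where females were at least 169-fold higher. The first became 0.0537 when only the groups compared were fitted. The close copy Sult3a2 had 59 counts in hCYP2B6-Tg and 10 in Cyp2b-null females and 0 in males, and 6.154% of the 50-base stretches of Sult3a1 occur in another Sult transcript.

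The phenol sulfotransferase gene Sult1a1 had RNA in both sexes and was higher in females. It stood at 461, 499, 434 and 430 CPM in hCYP2B6-Tg females and 474, 568, 495 and 486 CPM in Cyp2b-null females. Males had 347, 365, 270 and 326 CPM with hCYP2B6-Tg and 295, 310, 239 and 305 CPM with Cyp2b-null. Every female library was above every male library. On the log2 scale females exceeded males by 0.48 ± 0.10 in hCYP2B6-Tg livers (edgeR adjusted p = 0.00182) and 0.82 ± 0.10 in Cyp2b-null livers (2.58e-06).

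Sult1d1, whose enzyme sulfates catecholamines, was also higher in females. It stood at 313, 289, 201 and 256 CPM in hCYP2B6-Tg females and 211, 371, 289 and 268 CPM in Cyp2b-null females. Males had 196, 156, 166 and 166 CPM with hCYP2B6-Tg and 162, 161, 131 and 164 CPM with Cyp2b-null. The lowest hCYP2B6-Tg female library was only just above the highest male library of that genotype. On the log2 scale females exceeded males by 0.63 ± 0.15 in hCYP2B6-Tg livers (edgeR adjusted p = 0.0118) and 0.88 ± 0.15 in Cyp2b-null livers (0.00102).

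Sult1e1, the estrogen sulfotransferase gene, was low everywhere. It stood at 0.403, 8.62, 6.96 and 4.99 CPM in hCYP2B6-Tg females and 0.878, 4.99, 6.22 and 6.04 CPM in Cyp2b-null females. Males had 1, 6, 12 and 3 counts with hCYP2B6-Tg and 1, 2, 1 and 0 counts with Cyp2b-null. One female library of each genotype, tg_female 1 and null_female 1, was far below the others. The pooled ratio, females over males, was 7.34 (4.69 to 12) in hCYP2B6-Tg livers, where the groups overlap (11.4 without tg_male 4, interval 6.06 to 24.3), and 33.3 (12.7 to 124) in Cyp2b-null livers, where they do not. The edgeR adjusted p was 0.00591 and 0.00154, but limma voom gave 0.187 and 0.0616. Fitting only the groups compared gave 0.0804 in hCYP2B6-Tg livers, and Sult1e1 was not tested in that fit of Cyp2b-null livers.

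Sult1b1, whose enzyme sulfates thyroid hormones, showed no sex difference that passed the test. It stood at 43.0, 28.7, 40.4 and 29.4 CPM in hCYP2B6-Tg females and 30.4, 38.0, 33.8 and 41.7 CPM in Cyp2b-null females. Males had 42.0, 44.0, 40.4 and 42.0 CPM with hCYP2B6-Tg and 34.5, 44.2, 37.6 and 54.2 CPM with Cyp2b-null, overlapping the females in both genotypes. Females minus males on the log2 scale gave -0.25 ± 0.14 in hCYP2B6-Tg livers (edgeR adjusted p = 0.291) and -0.24 ± 0.14 in Cyp2b-null livers (0.366).

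**Figure D2:**
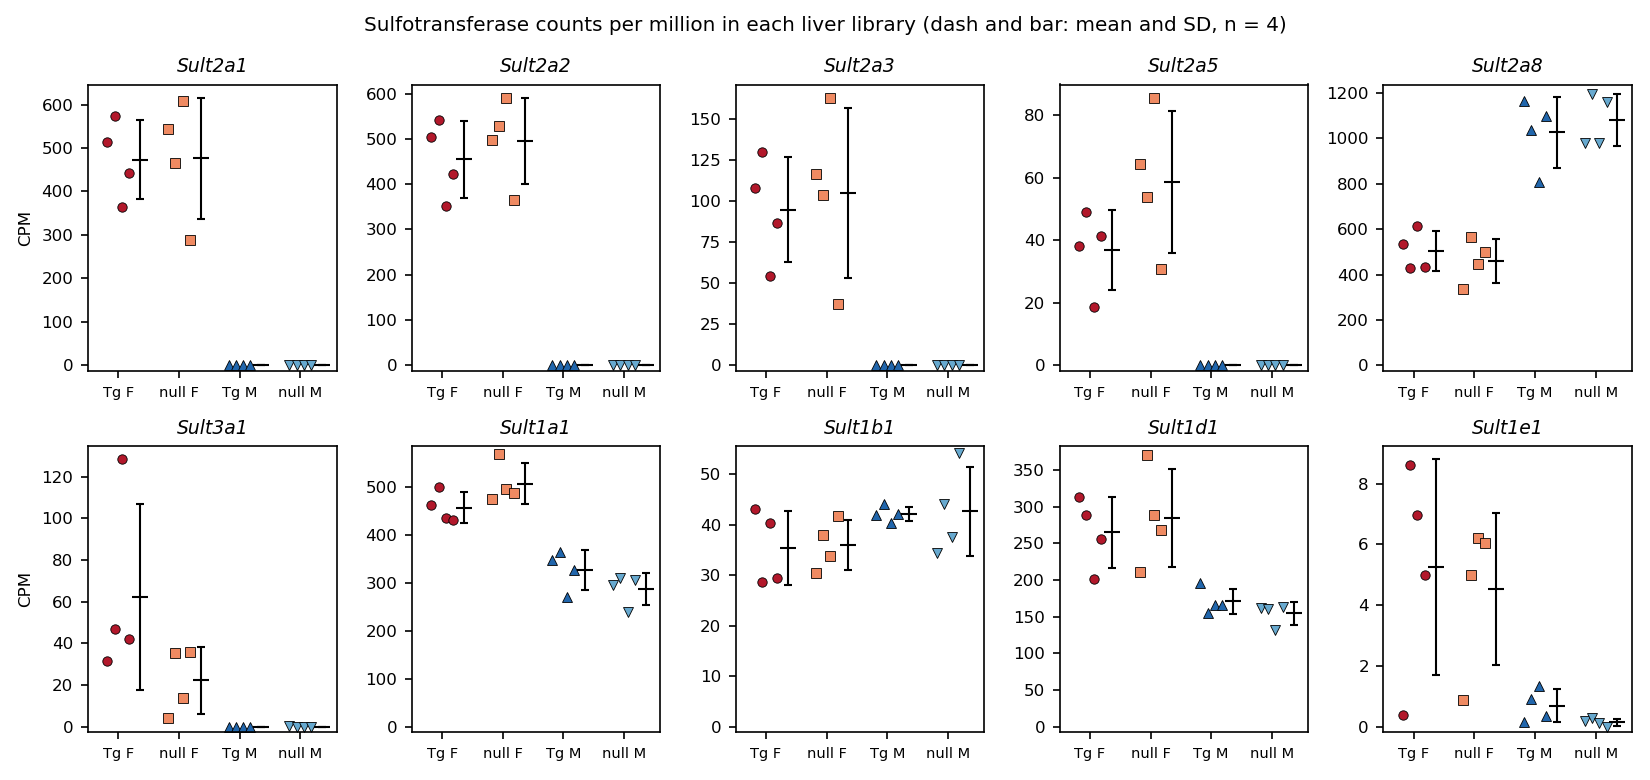
CPM of each gene in every library (points), with the mean and SD of each group (n = 4 libraries) beside them; Tg is hCYP2B6-Tg, null is Cyp2b-null, F female and M male, and each panel has its own axis starting near 0. Sult2a1, Sult2a2, Sult2a3, Sult2a5 and Sult3a1 lie on the zero line in males, Sult2a8 is higher in males, and the groups of Sult1b1 overlap.

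As a list, 9 of the 10 genes differed between the sexes in each genotype, 8 higher and 1 (Sult2a8) lower in females. Sult2a1, Sult2a2, Sult2a3, Sult2a5, Sult3a1 and Sult1e1 had passed the filter on low counts through their level in females. The list was also chosen with earlier results of these data known. The shares of all genes are therefore given as background and not as a test of the list. Of all 13470 genes tested, 10.3% passed in hCYP2B6-Tg livers, 4.69% being higher and 5.56% lower in females, and 7.52% passed in Cyp2b-null livers, 3.57% higher and 3.95% lower. Without overlap between the libraries of the sexes, 7 genes were above and 1 below in hCYP2B6-Tg females, where 7.41% and 8.2% of all genes were, and 8 above and 1 below in Cyp2b-null females, where 5.66% and 6.64% were. Limma voom gave 8 of 10 in each genotype and DESeq2 gave 9. Fitting only the groups compared gave 7 of 10 in hCYP2B6-Tg livers. In Cyp2b-null livers that fit gave 8, and Sult1e1 was not among the genes tested.

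**Figure D3:**
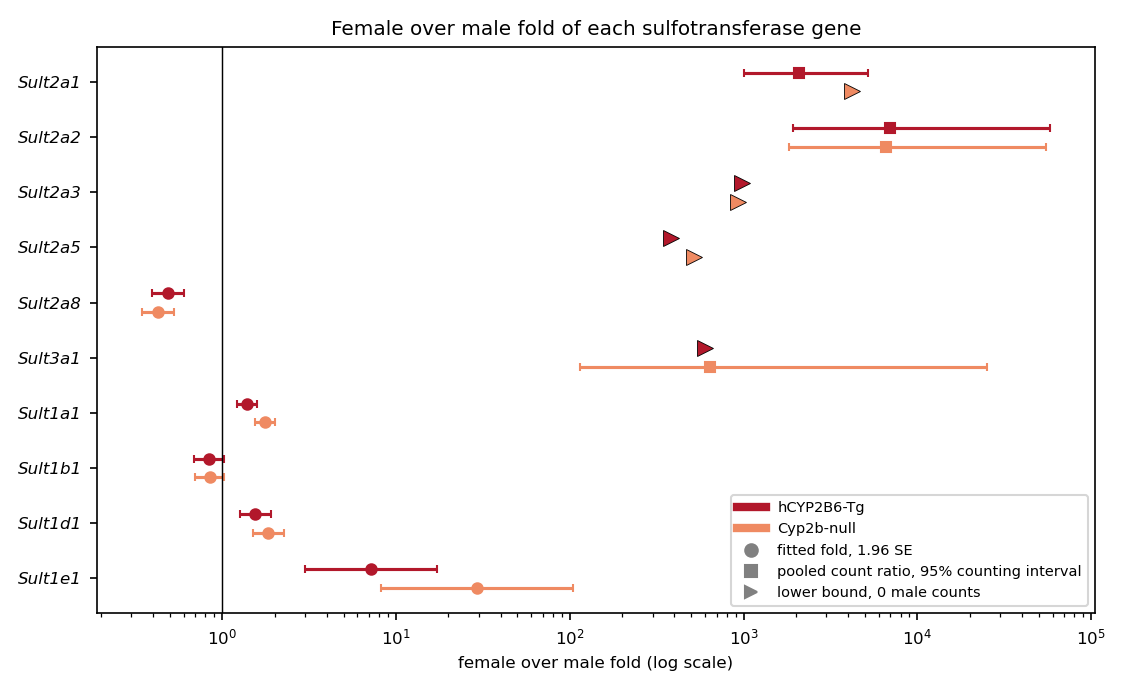
Female over male fold of each gene on a log scale, hCYP2B6-Tg above Cyp2b-null; circles are fitted folds with 95% intervals, squares are ratios of pooled counts with 95% counting intervals, and triangles are lower bounds where males had 0 counts. Sult2a8 lies left of 1 (0.490 in hCYP2B6-Tg and 0.427 in Cyp2b-null livers), the intervals of Sult1b1 include 1, and the female genes of the Sult2a cluster and Sult3a1 lie at 382 or more.

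Markers of other liver cells moved with sex in part. Of 5 Kupffer cell markers 1 was higher in females in hCYP2B6-Tg livers and 3 in Cyp2b-null livers; their sum was 271 to 325 CPM in hCYP2B6-Tg females and 273 to 452 in Cyp2b-null females, against 216 to 248 in hCYP2B6-Tg males and 194 to 262 in Cyp2b-null males, with none at 0. Of 6 adipocyte markers, Cfd was lower in females in both genotypes, and the sums were 3.73 to 6.81 and 3.12 to 8.75 CPM in hCYP2B6-Tg and Cyp2b-null females against 8.40 to 43.8 and 9.47 to 24.9 CPM in the males. Adipoq, Lep, Plin1 and Retn were at 0 in Cyp2b-null females and hCYP2B6-Tg males, and Lep and Retn also in hCYP2B6-Tg females. No marker of 5 for endothelial cells, 5 for stellate cells or 3 tested of 5 for cholangiocytes passed in either genotype, and none was at 0 over a group. The endothelial sums were 153 to 211 and 136 to 224 CPM in hCYP2B6-Tg and Cyp2b-null females against 179 to 196 and 155 to 183 CPM in the males, and the stellate sums 235 to 287 and 256 to 293 CPM against 211 to 238 and 194 to 271 CPM. The cholangiocyte sums were 22.8 to 41.3 and 28.7 to 56.8 CPM in the females against 25.05 to 39.1 and 20.6 to 98.1 CPM in the males. Of the 5 exocrine pancreas markers, Cpa1, Pnlip and Clps were at 0 in every group, Ctrb1 had 1 count outside null_male 4, and Cela1 was lower in Cyp2b-null females than in males. The pancreas sums were 9.08 to 16.7 and 11.1 to 16.3 CPM in hCYP2B6-Tg and Cyp2b-null females against 12.9 to 21.5 and 15.9 to 54.5 CPM in the males. The highest cholangiocyte and pancreas sums were those of null_male 4; without it Cela1 had an edgeR adjusted p of 0.0906 in place of 0.0213, and the Kupffer cell marker Csf1r 0.0832 in place of 0.026. The part of these cells in the SULT values was not tested.

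No SULT gene passed the test between the genotypes. In females 0 of 10 passed in edgeR, 1 of 10 had an unadjusted p under 0.05, and limma voom and DESeq2 called 0; of all genes 0% passed, 1022 having an unadjusted p under 0.05 and DESeq2 calling 12. In males 0 of 10 passed, none had an unadjusted p under 0.05, and both other tools called 0. Of all 13470 genes 0.111% passed in males, and 966 had an unadjusted p under 0.05. The difference in genotype effect between the sexes also gave 0 of 10 (1 at an unadjusted p under 0.05, 0 in both other tools). Of all 13470 genes 0.0445% passed for this difference, and 1037 had an unadjusted p under 0.05. A p that misses the threshold does not show equal levels, so the size and interval of each difference are given.

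In females Sult3a1 had the largest estimate, a log2 fold change (hCYP2B6-Tg over Cyp2b-null) of 1.45 ± 0.61, interval 0.25 to 2.64, unadjusted p = 0.0414 and edgeR adjusted p = 0.633. The groups overlapped: the hCYP2B6-Tg library at 31.5 CPM was below 2 Cyp2b-null libraries, and leaving out tg_female 4, the library at 128 CPM, gave 0.82. Sult2a5 had -0.66 ± 0.40 (-1.44 to 0.12, adjusted p = 0.772). The other 8 genes lay between -0.15 (Sult1a1) and 0.14 (Sult1e1), with adjusted p of 0.769 to 0.997. Leaving out single libraries turned the sign of Sult2a1, Sult2a3, Sult2a8, Sult1b1, Sult1d1 and Sult1e1. The narrowest interval was that of Sult1a1, -0.34 to 0.04, and the widest of these 8 was that of Sult2a3, -1.09 to 0.80.

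In males Sult1a1 was at 0.19 ± 0.10 (log2, -0.01 to 0.38, unadjusted p = 0.0687, edgeR adjusted p = 0.714). Sult1d1 was at 0.15 ± 0.15, Sult2a8 at -0.07 ± 0.15 and Sult1b1 at -0.02 ± 0.14. The last 2 changed sign when tg_male 4 was left out, and Sult1b1 also without null_male 2 or null_male 4. Sult1e1 had 22 counts in hCYP2B6-Tg and 4 in Cyp2b-null males, a ratio of 4.92 (1.67 to 19.6), or 3.16 (0.912 to 13.8) without tg_male 4, with overlapping groups and adjusted p = 0.813. Sult2a1 had 7 counts in hCYP2B6-Tg males, at least 1 in each library, against 0 in all Cyp2b-null males. Of the 7 counts, 4 were in tg_male 3, and without it 3 counts remained, at the limit that a count of 0 allows, so no fold is given. All libraries of one group were thus above all of the other, which 2.4% of the genes tested showed in that direction, and the edgeR adjusted p was 0.769. Sult2a2 had 2 counts in each genotype, Sult3a1 0 and 1, and Sult2a3 and Sult2a5 0 in both, and no fold is given for these 4 genes either.

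**Figure D4:**
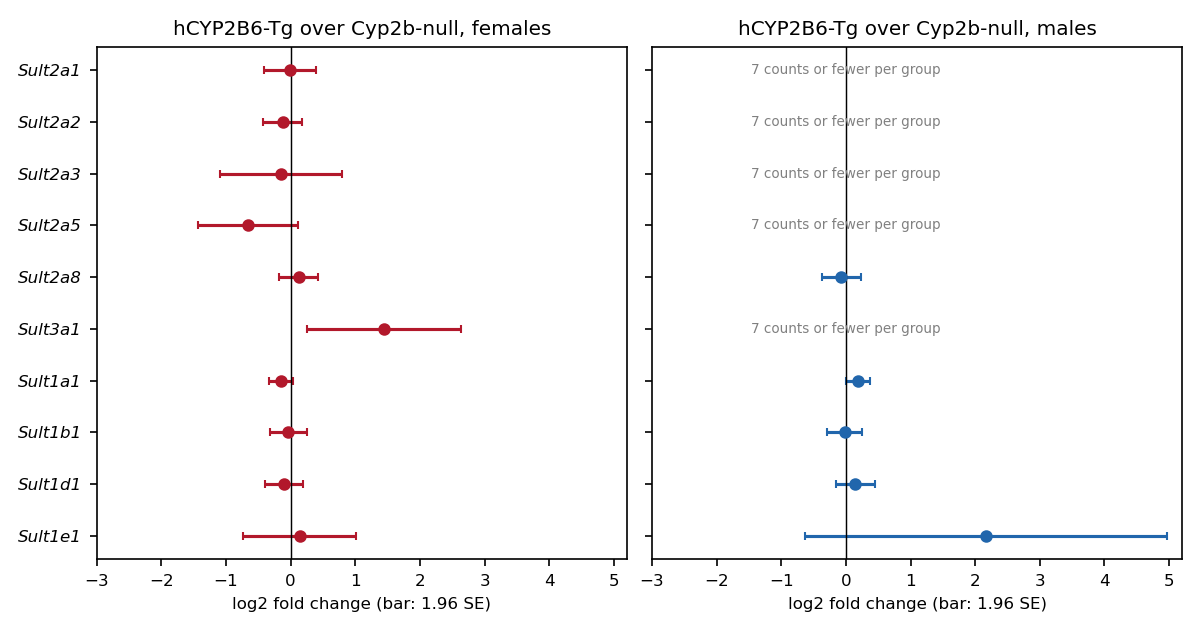
Log2 fold change of hCYP2B6-Tg over Cyp2b-null for each gene in females (left) and males (right), with 95% intervals of the edgeR estimate; genes with 7 or fewer counts in each male group have no estimate drawn. In females only the interval of Sult3a1 (0.25 to 2.64) lies to one side of 0, before adjustment over all genes.

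Of the genes counted in both sexes, Sult1a1 had the smallest p for the difference in genotype effect, with male minus female 0.34 ± 0.14 (0.07 to 0.61, unadjusted p = 0.0228, edgeR adjusted p = 0.582). Its hCYP2B6-Tg level averaged 456 ± 31.7 CPM in females (SD, n = 4) against 506 ± 42.2 in Cyp2b-null females, and 327 ± 41.2 in hCYP2B6-Tg males against 287 ± 32.7 in Cyp2b-null males. Sult1d1 gave 0.25 ± 0.21 and Sult2a8 -0.20 ± 0.22. Sult1b1 gave 0.01 ± 0.20. Sult1e1 gave 2.03 ± 1.51 (-0.92 to 4.98, unadjusted p = 0.192, adjusted p = 0.792). No value is given for the 5 genes with 7 counts or fewer in each male group.

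Read per kilobase of the longest coding transcript (GENCODE), Sult2a2 had the highest level in hCYP2B6-Tg females, 615 ± 115 CPM per kb, followed by Sult2a1 (464 ± 88.7), Sult1a1 (333 ± 23.1), Sult2a8 (235 ± 40.9), Sult1d1 (109 ± 20), Sult2a3 (93.3 ± 31.7), Sult3a1 (53.8 ± 38.6), Sult2a5 (35.2 ± 12.3), Sult1b1 (13.5 ± 2.84) and Sult1e1 (4.22 ± 2.86). By mean ± SD, Sult2a2 and Sult2a1 overlapped, as did Sult1d1 and Sult2a3, Sult2a3 and Sult3a1, and Sult3a1 and Sult2a5. Cyp2b-null females had the same order except that Sult2a5 (56.1 ± 21.7) stood before Sult3a1 (19.3 ± 13.8), and there the overlapping neighbours were Sult2a2 and Sult2a1, Sult2a1 and Sult1a1, Sult1d1 and Sult2a3, Sult2a3 and Sult2a5, and Sult3a1 and Sult1b1. The Sult2a2 model has 741 bases against 1018 to 1046 in its closest relatives, so its level per length may be too high. In males the order was Sult2a8 (479 ± 72.5 in hCYP2B6-Tg, 504 ± 53.6 in Cyp2b-null), Sult1a1 (239 ± 30.1 and 210 ± 23.9), Sult1d1 (70.7 ± 7.10 and 63.9 ± 6.37), Sult1b1 (16.1 ± 0.564 and 16.3 ± 3.34) and Sult1e1 (0.560 ± 0.439 and 0.119 ± 0.0921), with no overlap between neighbours.

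Within female groups the hydroxysteroid genes varied together. As log2 CPM minus the group mean over 8 female libraries, Sult2a1 and Sult2a3 had r = 0.99 (rho = 1, and 0.96 without the 2 libraries farthest in Sult2a1), Sult2a1 and Sult2a2 r = 0.94 (0.93, 0.78) and Sult2a3 and Sult2a5 r = 0.94 (0.83, 0.79). The other 3 pairs were Sult2a2 and Sult2a3 with r = 0.96 (0.93, 0.86), Sult2a1 and Sult2a5 with r = 0.93 (0.83, 0.76), and Sult2a2 and Sult2a5 with r = 0.92 (0.76, 0.56). In null_female 5 Sult2a1 was 0.67 below its group mean on the log2 scale and Sult2a3 was 1.3 below, while Sult3a1 was 1.11 above. In tg_female 4 the deviations were -0.36 for Sult2a1, -0.73 for Sult2a3 and 1.27 for Sult3a1. In null_female 3, however, Sult3a1 was 1.09 above its group mean with Sult2a1 at 0.02 and Sult2a3 at 0.17. Sult2a1 and Sult3a1 had r = -0.67, which became -0.32 without the 2 libraries farthest from the median. With Sult3a1, Sult2a2 had r = -0.51 (0.23 without 2), Sult2a3 -0.61 (-0.08) and Sult2a5 -0.67 (-0.19). Sult2a8 and Sult3a1 had r = 0.85 (0.66 without 2), Sult2a8 and Sult1b1 0.83 (0.91), and Sult1a1 and Sult1d1 0.80 (0.84). These are descriptions over libraries that share depth, scaling and, within Sult2a, near-identical sequence.

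**Figure D5:**
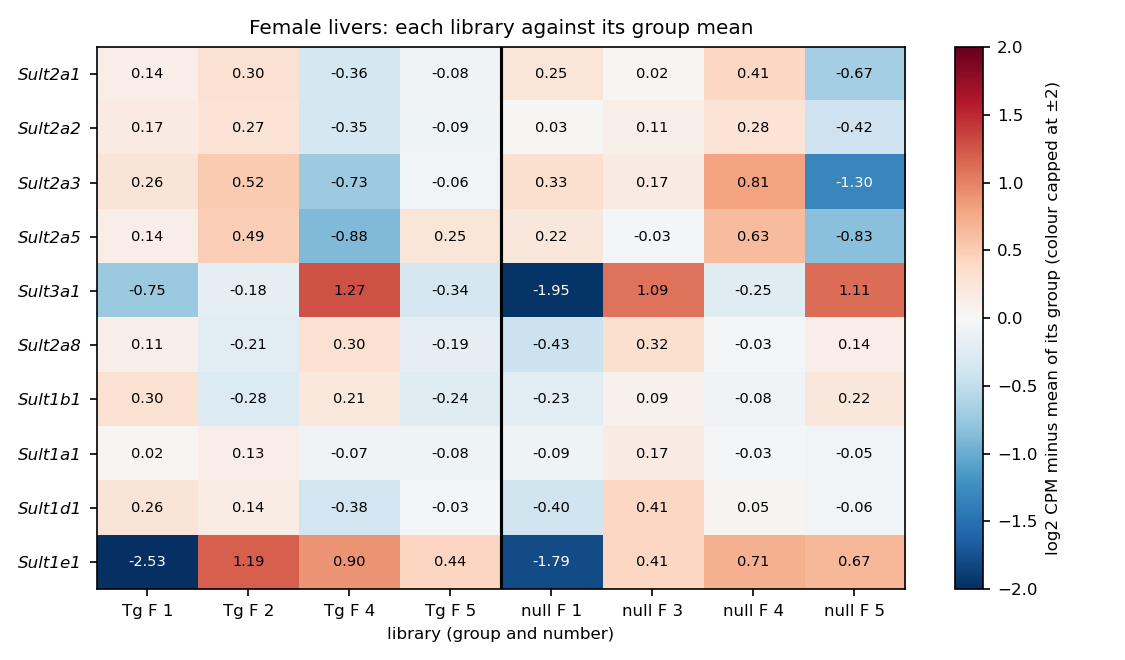
Log2 CPM of each gene minus the mean of its group in the 8 female libraries, with hCYP2B6-Tg left of Cyp2b-null; numbers are the deviations and colours are capped at 2. The 4 hydroxysteroid genes are low together in Tg F 4 and null F 5, where Sult3a1 is high. Sult3a1 is also high in null F 3 (1.09), where the 4 genes lie between -0.03 and 0.17.

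Among all tested genes, the pattern of deviations from the group means over 16 libraries was nearest to Sult2a8 for Hsd3b3 (r = 0.92, 0.84 without the 2 farthest libraries) and Rgn (0.88, 0.77). Nearest to Sult1b1 were Msmo1 (0.91, 0.88) and Nsdhl (0.87, 0.87). Sult1a1 was nearest Cyp17a1 (0.87, 0.68) and Gm9512 (0.87, 0.77), Sult1d1 1810008I18Rik (0.87, 0.74) and Rarres2 (0.85, 0.73), and Sult1e1 Gm31649 (0.86, 0.68) and Gm38675 (0.85, 0.64). Sult2a3 and Sult2a5 were at 0 in males, so there the males add only the spread of the other gene. This lowers r for genes that vary in males. Sult2a1, Sult2a2 and Sult3a1 had a few male counts, so differences of single counts near the limit of detection enter their values. Zbed4-ps2 (0.88, 0.81) and Gm13136 (0.81, 0.67) were nearest Sult2a1. Ndufs5 (0.80, 0.59) and Ahcyl1 (0.79, 0.85) were nearest Sult2a2. Zbed4-ps1 and Marcksl1-ps4 were nearest both Sult2a3 (0.89, 0.87 and 0.85, 0.79) and Sult2a5 (0.91, 0.60 and 0.87, 0.51). Txlng (0.89, 0.78) and Eef1g (0.87, 0.68) were nearest Sult3a1. All of these are the 2 highest r per gene in a search over all other tested genes, which picks high values by design. Whether any pair shares its regulation was not tested.

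The donor PAPS is made by the PAPS synthases. Of 22 genes listed for sulfate and cofactor supply, 16 were tested, and 1 was higher and 0 lower in females in hCYP2B6-Tg livers, against 3 higher and 2 lower in Cyp2b-null livers. Papss2, a PAPS synthase, averaged 359 ± 37.9 CPM in hCYP2B6-Tg females against 235 ± 34.0 in the males of that genotype, which is 0.62 ± 0.13 on the log2 scale (edgeR adjusted p = 0.00246). It averaged 411 ± 75.5 CPM in Cyp2b-null females and 206 ± 19.9 in males, 1.0 ± 0.13 (1.31e-05). In Cyp2b-null livers Cbs and Sqrdl, of sulfur amino acid and sulfide breakdown, were also higher in females, at 0.40 ± 0.11 (0.0224) and 0.30 ± 0.08 (0.0262). Mpst, which makes sulfide, and Bpnt1, which breaks down the spent cofactor, were lower there, at -0.39 ± 0.09 (0.00899) and -0.28 ± 0.08 (0.0404). The list's median was 0.05 in hCYP2B6-Tg and 0.01 in Cyp2b-null livers, where all genes had 0.02 and 0.00. Between the genotypes 0 of 16 passed in either sex in edgeR, limma voom or DESeq2, with 1 at an unadjusted p under 0.05 in each sex, Cdo1 in females (-0.21 ± 0.10) and Slc35b2, the PAPS carrier of the Golgi, in males (-0.26 ± 0.11).

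Of 12 other SULT genes listed, 11 were in the table and 3 were tested. Sult2a7, the neighbour of Sult2a8, averaged 11.9 ± 7.39 CPM in hCYP2B6-Tg females against 3.11 ± 1.23 in males, 1.94 ± 0.55 on the log2 scale (edgeR adjusted p = 0.0412), and 8.16 ± 5.57 CPM in Cyp2b-null females against 2.04 ± 0.391 in males, 2.06 ± 0.64 (0.0719). Its neighbour Sult2a8 was lower in females. Between the genotypes 0 of 3 passed in edgeR, limma voom or DESeq2; Sult5a1 had the smallest p in females (0.71 ± 0.28, unadjusted p = 0.0205, adjusted 0.584) and Sult1c2 in males.

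Sulfatases remove the sulfate that SULTs add. The list of 15 genes also holds Sumf1 and Sumf2, sulfatase-modifying factor genes that do not encode sulfatases. Of the 15, 12 were tested. In hCYP2B6-Tg livers 0 were higher and 2 lower in females, in Cyp2b-null livers 1 higher and 1 lower. Arsa, arylsulfatase A, averaged 11.7 ± 2.99 CPM in hCYP2B6-Tg females against 69.9 ± 10.8 in males, -2.58 ± 0.16 (edgeR adjusted p = 1.2e-10), and 11.8 ± 2.71 in Cyp2b-null females against 62.3 ± 5.10 in males, -2.38 ± 0.16 (6.42e-10). Arsg was lower in hCYP2B6-Tg females (-0.57 ± 0.17, 0.033), and Ids, which acts on glycosaminoglycans, was higher in Cyp2b-null females (0.58 ± 0.10, 0.000501). The list's median was 0.03 in hCYP2B6-Tg and 0.00 in Cyp2b-null livers. Between the genotypes 0 of 12 passed in edgeR, limma voom or DESeq2, with 0 in females and 1 in males, Sumf2 (-0.43 ± 0.20), at an unadjusted p under 0.05.

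Of 23 regulators of hepatic SULT genes, 22 were tested, and 5 were higher and 3 lower in females in hCYP2B6-Tg livers, and 3 higher and 1 lower in Cyp2b-null livers. Cux2, a transcription factor of female mouse liver, averaged 18.1 ± 7.31 CPM in hCYP2B6-Tg females against 0.154 ± 0.109 in males, and 35.9 ± 21.9 in Cyp2b-null females against 0.225 ± 0.340 in males (edgeR adjusted p = 4.94e-06 and 3.75e-07). Esr1, the estrogen receptor, was 1.24 ± 0.17 (2.49e-05) and 1.75 ± 0.17 (2.96e-07) higher on the log2 scale in females of hCYP2B6-Tg and Cyp2b-null livers. In hCYP2B6-Tg livers Ahr (0.85 ± 0.15), Stat5a (0.59 ± 0.15) and Nr1h3 (0.26 ± 0.08) were also higher in females and Ppara (-0.41 ± 0.10), Rora (-0.28 ± 0.09) and Ghr (-0.26 ± 0.08) lower. In Cyp2b-null livers Stat5b (0.44 ± 0.12) was higher and Nr1h4, the bile acid receptor FXR (-0.43 ± 0.10), lower. Between the genotypes edgeR called 0 of 22 in either sex, limma voom 0, and DESeq2 0 in females and 2 in males; 1 in females and 5 in males had an unadjusted p under 0.05. Cux2 had the smallest p in females (-0.95 ± 0.35, adjusted p = 0.566) and Rora in males (0.39 ± 0.09, adjusted p = 0.115).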

How the data were processed

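Mouse liver RNA was sequenced in 16 libraries (NEB Next Ultra RNA kit), per the labels' protocols. The authors deposited one table of raw whole-number read counts per gene symbol (41585 rows, 16032 at 0 throughout), and the submitters' processing notes list, without versions, edgeR, FastQC, GSNAP, Subread, Trimmomatic and the build GRCm38.p6. The sources used here do not say how strand and multi-mapping reads were handled, so reads may be shared between near-identical Sult2a genes. Genes were filtered with filterByExpr, scaled by TMM and tested with edgeR's quasi-likelihood F test, two-sided, in one fit of 16 libraries in 4 groups, Benjamini-Hochberg adjusted over 13470 genes with a threshold of 0.05. SE came from the fold change and F. Intervals are 95%. The software was DESeq2 1.42.0, limma 3.58.1 and edgeR 4.0.16 under R 4.3.3.

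Groups came from the titles. The 10 genes and the lists of related genes and cell markers were chosen with earlier results of these data known. Genes named were the 10, the listed genes past the threshold in any comparison (or the one with the smallest p), and the 2 genes most like each of the 10. Replicates of one group differed beyond sampling noise (chi-square per degree of freedom 6.53 to 19.7 in 24 pairs). Ribosomal RNA rows took 2.76% to 9.31% of counts. The row for the human transgene was not analysed here. Alternatives were RLE scaling, library totals, no filter or at least 1 CPM in 4 libraries, limma voom, DESeq2, a replicate block, only the groups compared, no ribosomal rows, each library left out, 3 libraries left out together, and edgeR's older quasi-likelihood method. The test was checked on simulated data.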

Additional observations from a re-analysis of the deposited data

Results flagged for a closer look

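Of 30 gene and group combinations checked, 3 had one library standing far from the other 3 of its group, and chance alone sets apart about 1 in 20 groups. Sult3a1 was at 128 CPM in tg_female 4, against 31.5 to 46.7 CPM in the other hCYP2B6-Tg females. Sult2a1 was at 0.615 CPM in tg_male 3, from 4 counts, against 1 count in each of the other hCYP2B6-Tg males. Sult1d1 was at 131 CPM in null_male 3, against 161 to 164 CPM in the other Cyp2b-null males.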

How the results depend on the processing

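Counts of SULT genes passing the test kept to 0 in both genotype comparisons and in their difference in every alternative, and lay between 7 and 9 (hCYP2B6-Tg) and 6 and 9 (Cyp2b-null) for sex. The number of all genes passing moved more. In females by genotype it was 0, and 2 without the filter, 12 in DESeq2, 2 with the replicate block and 0 to 1 with single libraries left out. In males by genotype it was 15, and 6 in limma voom, 47 in DESeq2, 5 with the block, 26 with only the groups compared, 28 without null_female 1, null_female 3 and tg_male 4, and 2 to 8 with single libraries left out. For the difference it was 6, and 0 with library totals only, 3 in limma voom, 16 in DESeq2 and 0 to 12 with single libraries left out. The 3 libraries left out together, the older edgeR method, the markers without null_male 4 and the pooled ratios without single libraries were chosen after seeing the data; the causes were not tested. No value past the threshold changed direction. Some genotype differences near 0 did (log2, hCYP2B6-Tg over Cyp2b-null). With single libraries left out, in females Sult2a1 ran between -0.19 and 0.13, Sult2a3 -0.43 and 0.16, Sult2a8 -0.0064 and 0.23, Sult1b1 -0.14 and 0.058, Sult1d1 -0.23 and 0.048, and Sult1e1 -0.24 and 0.52; in males Sult2a8 ran between -0.13 and 0.030 and Sult1b1 -0.10 and 0.12; the difference between the sexes for Sult1b1 ran between -0.079 and 0.15. In limma voom Sult2a1 was 0.032 and Sult1e1 -0.24 in females. Without the 3 libraries Sult2a1 was 0.081 and Sult1e1 -0.21 in females, and Sult2a8 0.027 in males. Sult1b1 was 0.00077 in males without the filter, and its difference between the sexes -0.019 with library totals only and -0.014 with the replicate block. Same-numbered libraries of different groups had correlations of -0.107 to 0.122 in 12 pairs, 1 over 0.1, so the numbers do not pair them; with the replicate block the adjusted p was 0.117 and 0.132 for Sult2a3 and 0.131 and 0.129 for Sult2a5 (sex, hCYP2B6-Tg and Cyp2b-null) and 0.0513 for Sult3a1 (Cyp2b-null). Depth limits what can be said of the genes near 0 in males.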
